A study of Rattus norvegicus with 4 samples.

Results

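The insulin-like growth factor (IGF) system of the liver was described in 14 of 1936 array features. The features were taken by gene symbol alone, whatever their values: all features with a single symbol that was Igfals, Igf1, Igf2, Igf1r, Igf2r or Ghr, or that began with Igfbp. They stood for 10 genes, with 1 feature for the carrier Igfals, 2 for the ligands Igf1 and Igf2, 1 for the growth hormone receptor Ghr, and 10 for the binding proteins Igfbp1 to Igfbp6. No feature carried the symbol Igf1r or Igf2r, so the receptors of the ligands were not analysed here and Ghr alone stood for the receptor class. Igfbp1 and Igfbp2 had 2 features each and Igfbp3 had 3, and these are written (a), (b) and (c) from the lowest mean ratio to the highest.

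Livers of male Sprague-Dawley rats were taken 24 h after a single intraperitoneal dose of α-naphthylisothiocyanate (ANIT, 75 mg/kg), a toxicant of the bile duct epithelium that causes cholestasis, dissolved in olive oil. Control rats received olive oil alone. RNA of the 3 rats of a condition was mixed, which left 1 pool per condition and no measure of the spread between animals, and poly(A) RNA of the pools was labelled with the dyes Cy3 and Cy5 and hybridised to 4 spotted cDNA arrays. The ANIT pool carried Cy5 on arrays 1 and 3 and Cy3 on arrays 2 and 4. Each value is a log ratio, read as log2 of ANIT over olive oil. The sources used here give neither its direction nor its base, so the direction is a likely one that rests on the order of the channels in the labels. Each SD is over the 4 hybridisations of the same pools and holds hybridisation error and the difference between dye orientations. No p-value is given for the treatment. In pooled tissue, fewer cells of a type and less RNA per cell cannot be told apart.

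In the adult, the liver is the main source of circulating IGF1. Pituitary growth hormone binds its receptor on hepatocytes, acts through the kinase JAK2 and the factor STAT5B, and drives transcription of Igf1 and Igfals. Most IGF in plasma travels in a complex of the ligand, a binding protein (mainly IGFBP3, or IGFBP5) and the acid-labile subunit that Igfals encodes, which prolongs its life in the circulation. The other binding proteins form smaller complexes, and hepatic IGFBP1 is held down by insulin.

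Igfals was the member past the 2-fold rule, in which the mean ratio had to be at least 1 log2 in size and all 4 arrays had to have the same sign. Its promoter is shown with that of Igf1, the other growth hormone target that was below 0 on all arrays, and that of Igfbp1, the insulin-controlled binding protein. The RefSeq promoter windows of the rat assembly GRCr8 reach from 250 bases before to 50 bases after an annotated start, and all 10 member genes had 1 or more. They lay at chr10:14403600-14403899 on the plus strand (Igfals), chr7:24172282-24172581 on the plus strand (Igf1) and chr14:86261027-86261326 on the plus strand (Igfbp1). The windows of Igfals and Igf1 lie inside the annotated genes, which begin at 14397076 and 24169608. Sequence at those first bases was not searched. In the same assembly Igfbp1 is the direct neighbour of Igfbp3, and Igfbp2 of Igfbp5. Capitals mark matches of the 4 motifs that were searched on both strands.
Igfals: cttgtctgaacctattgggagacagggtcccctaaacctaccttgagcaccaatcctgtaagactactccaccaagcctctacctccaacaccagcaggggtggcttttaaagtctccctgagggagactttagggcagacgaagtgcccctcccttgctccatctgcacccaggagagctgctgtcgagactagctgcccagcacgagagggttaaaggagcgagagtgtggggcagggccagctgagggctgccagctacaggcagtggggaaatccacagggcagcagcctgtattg
Igf1: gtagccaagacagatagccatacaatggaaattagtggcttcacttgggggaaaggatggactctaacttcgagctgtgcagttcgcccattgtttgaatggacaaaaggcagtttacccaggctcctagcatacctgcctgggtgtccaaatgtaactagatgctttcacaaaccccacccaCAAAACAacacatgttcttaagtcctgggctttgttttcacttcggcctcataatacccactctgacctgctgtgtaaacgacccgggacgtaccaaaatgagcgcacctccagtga
Igfbp1: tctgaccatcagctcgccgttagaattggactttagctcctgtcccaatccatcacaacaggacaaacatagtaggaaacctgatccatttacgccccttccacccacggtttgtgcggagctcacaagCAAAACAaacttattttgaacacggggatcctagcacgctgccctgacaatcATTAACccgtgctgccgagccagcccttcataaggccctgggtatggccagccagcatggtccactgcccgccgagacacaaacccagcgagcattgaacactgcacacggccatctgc

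The motif TTCNNNGAA, the core bound by STAT factors, was in none of the 11 windows of member genes and in 8.87% of 33469 windows of all genes. The letters CAAAACA, as in the insulin response element of the Igfbp1 promoter that FOXO factors bind, were found 121 to 115 bases before the start of Igfbp1 and 67 to 61 bases before that of Igf1, and in 6.28% of all windows. GTTAAT, a core of HNF1 sites, was found on the minus strand of Igfbp1, 69 to 64 bases before its start, on the plus strand of Igfbp6, and in 7.45% of all windows. TATAAA was found before the start of Igfbp4 and in 14.2% of all windows. No match overlapped another, and the Igfals window held none of the 4 motifs. A match describes letters in this window and is not a binding site measured here. The absence of a match covers these windows alone, since sequence outside them was not searched.

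Igfals encodes the acid-labile subunit, the liver-made glycoprotein that completes the large IGF complex of plasma. Its log2 ratios were -1.30, -1.21, -1.18 and -1.04 on arrays 1 to 4. All 4 values lay below -1, and those of the dye orientations overlapped. The mean was -1.18 ± 0.11 (SD, n = 4 hybridisations), so the transcript was 2.27-fold lower in the ANIT pool. Its dye contrast, which is the log2 effect of Cy5 over Cy3 on the ratio, was -0.05. Igfals ranked 48 from the lowest of the 1936 features. Of the 14 members, 1 was lower by the 2-fold rule, 0 were higher and 13 were neither, where 3.05% of all features were lower and 0.775% higher. At 1.5-fold, Igfals was again the single member called lower, with 6.92% of all features lower at that limit and 2.48% higher.

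The ligands had smaller ratios, on the same side of 0. Igf1, the growth factor through which much of growth hormone's action on the body runs, had values of -0.52, -0.52, -0.41 and -0.60 on arrays 1 to 4. The mean was -0.51 ± 0.08 (SD, n = 4), a level 1.43-fold lower in the ANIT pool that did not reach 2-fold. The 4 values lay within 0.19 log2 of each other in both dye orientations, with a dye contrast of 0.05. Igf2, a mainly fetal growth factor, had values of -0.08, -0.42, -0.49 and -0.32, with a mean of -0.33 ± 0.18. Array 1 stood closest to 0 for Igf2, and the dye contrast was 0.04. In the deposited values, Igfals, Igf1, Igf2 and Igfbp3 (a) were below 0 on all 4 arrays, which is 28.6% of the members against 17.6% of all features.

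The arrays' own level bears on these small ratios. The median of all features was -0.25, and centring each array on its median raised the mean ratios by 0.17. On arrays 1 to 4 the median of all features was -0.68, 0.31, -0.64 and 0.35, so it followed the dye. Igf1 and Igf2 lay above it on arrays 1 and 3 and below it on arrays 2 and 4. Their common sign therefore held for the deposited values only. Igfals lay below it on all 4 arrays, by less than 1 log2 on arrays 1 and 3 and by more on arrays 2 and 4. In the mean with centred arrays Igfals stood at -1.02, at the limit of the rule, Igf1 at -0.35 and Igf2 at -0.16. Igfals was then still the 1 member lower and 0 were higher, where 2.48% of all features were lower and 1.14% higher. The median of all members was -0.29 as deposited and -0.12 with centred arrays, beside -0.25 and -0.09 for all features.

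Ghr, the growth hormone receptor of hepatocytes, had log2 ratios of -1.04 and -0.63 where ANIT was in Cy5 and of 0.59 and 0.32 where it was in Cy3. The values followed the dye and did not overlap between orientations. The mean was -0.19 ± 0.77 (SD, n = 4), and the dye contrast of -0.65 was larger than the mean. The receptor's ratio therefore had no sign common to the arrays.

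**Figure D1:**
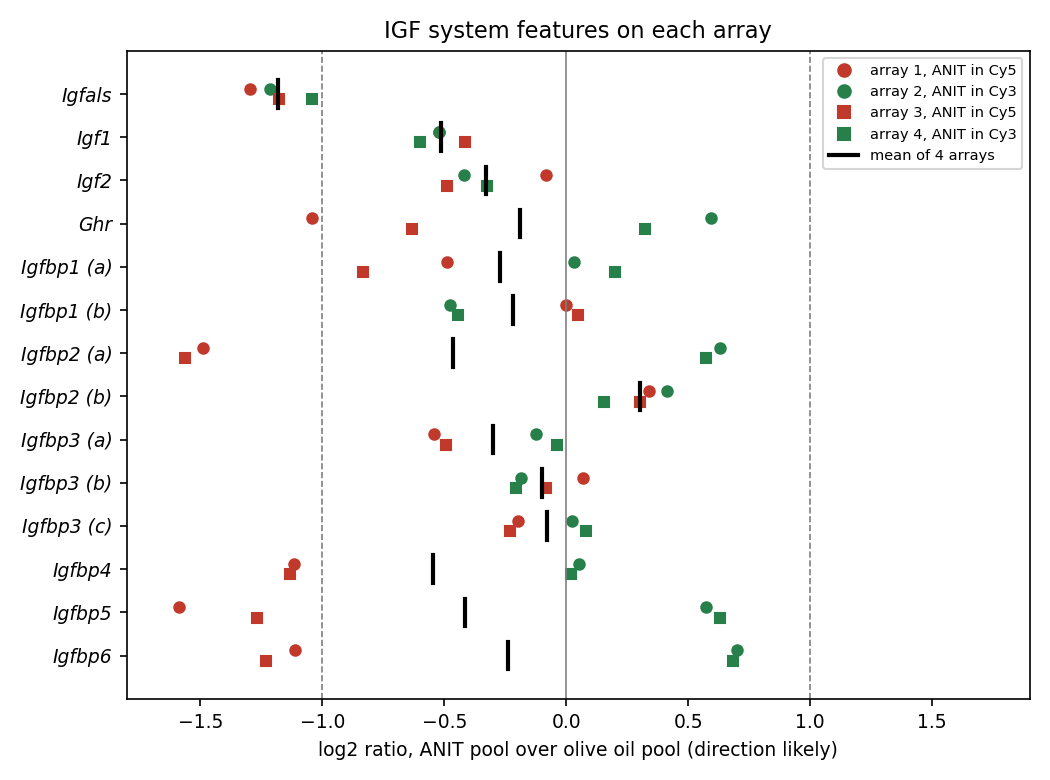
Log2 ratio of the ANIT pool over the olive oil pool (x axis) for the 14 IGF system features (y axis), with 1 point per array, coloured by the dye of the ANIT pool, and a black bar at the mean of the 4 arrays. Dashed lines mark the 2-fold limits of -1 and 1, and Igfals is the feature with all 4 points below -1, while Ghr, Igfbp2 (a), Igfbp4, Igfbp5 and Igfbp6 split by dye.

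Among the binding proteins, IGFBP3 is the main partner of IGF1 in the large complex. Igfbp3 (a) stood at -0.54, -0.12, -0.49 and -0.04 on arrays 1 to 4, with a mean of -0.30 ± 0.26. Igfbp3 (b) had a mean of -0.10 ± 0.13 with arrays between -0.20 and 0.07, and Igfbp3 (c) a mean of -0.08 ± 0.16 with arrays between -0.23 and 0.08. The gene mean over the 3 features was -0.16 ± 0.10 (SD, n = 4), and was below 0 on all 4 arrays. With centred arrays features (b) and (c) had means above 0, 0.06 and 0.08, so that Igfbp3 as a gene had no sign that held under both scalings.

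The insulin-controlled Igfbp1 had features that ran opposite ways with the dye. Feature (a) stood at -0.49 and -0.83 on arrays 1 and 3 and at 0.03 and 0.20 on arrays 2 and 4. Feature (b) stood at -0.0013 and 0.05 on arrays 1 and 3 and at -0.48 and -0.45 on arrays 2 and 4. Their dye contrasts were -0.39 and 0.24, yet their means of -0.27 ± 0.47 and -0.22 ± 0.28 differed by 0.05. Averaged over the features, the gene stood at -0.25 ± 0.11, between -0.39 and -0.12 on the 4 arrays. Relative to the median of its array, the mean was -0.11 for (a) and -0.05 for (b).

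Igfbp2, a binding protein of liver and fetal serum that rises when growth hormone and insulin are low, gave different ratios on its features. Feature (b) was above 0 on all 4 arrays, at 0.34, 0.41, 0.30 and 0.15, with a mean of 0.30 ± 0.11 (1.23-fold, short of the rule). It was the single member above 0 on every array, or 7.14% of members against 11.9% of all features. Feature (a) stood at -1.49 and -1.56 on arrays 1 and 3 but at 0.63 and 0.57 on arrays 2 and 4. Its mean was -0.46 ± 1.23 and its dye contrast -1.06, against 0.02 for feature (b). Relative to the median of its array, feature (b) lay above on arrays 1, 2 and 3 and below on array 4, with a mean of 0.47. Averaged over both, Igfbp2 stood at -0.08 ± 0.61. The gene mean thus joined a feature whose deposited values repeated across dyes with another whose values did not.

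Igfbp4, Igfbp5 and Igfbp6 had 1 feature each, and all were split by the dye. Igfbp4, an inhibitor of IGF action in tissues, stood at -1.12 and -1.13 where ANIT was in Cy5 and at 0.05 and 0.02 where it was in Cy3 (mean -0.54 ± 0.67). Igfbp5, which can also form the large plasma complex, stood at -1.59 and -1.27 against 0.57 and 0.63 (mean -0.41 ± 1.18). Igfbp6, which prefers IGF2 as its ligand, stood at -1.11 and -1.23 against 0.70 and 0.68 (mean -0.24 ± 1.08). Each orientation was repeatable, with a largest gap between its arrays of 0.32 for these genes, in Igfbp5, but the orientations disagreed in sign.

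Set against each other, the 11 features of carriers and binding proteins had a median of -0.27 and the receptor feature a ratio of -0.19. On arrays 1 to 4 the former median was -0.54, 0.03, -0.83 and 0.08. It was above the ratio of Ghr on array 1 and below it on the other 3, with a mean difference of -0.13 ± 0.45 (SD, n = 4). That difference between the class median and Ghr was smaller than the spread between arrays. The carrier Igfals on its own was below Ghr on 4 of 4 arrays, with differences of -0.255, -1.81, -0.54 and -1.37 log2 on arrays 1 to 4 and a mean difference of -0.99 ± 0.72 (SD, n = 4). The differences were smaller where ANIT was in Cy5. The binding proteins without Igfals had 0 of 10 features past the rule and a median of -0.26, close to the -0.25 of all features.

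Differences between members on the same array do not depend on how an array is centred. Igfals was lower than Igf1 on 4 of 4 arrays, with differences of -0.78, -0.69, -0.76 and -0.44 log2 and a mean difference of -0.67 ± 0.15. Igfals was 1.81-fold lower relative to Igf2 and 2.80-fold lower relative to Igfbp2 (b), again on 4 of 4 arrays each. It was below each of the 3 Igfbp3 features on all arrays, by 1.85-fold to 2.15-fold in the mean. It was also below Igfbp1 (a), Igfbp1 (b) and Igfbp4 on 4 of 4 arrays, with mean differences of -0.91 ± 0.43, -0.96 ± 0.35 and -0.64 ± 0.62. Against Igfbp2 (a) and Igfbp5 the order changed with the dye, with Igfals lower on 2 of 4 arrays, and against Igfbp6 it was lower on 3. For Igf1 the order against the other members was less uniform. Igf1 was lower than Igfbp2 (b), Igfbp3 (b), Igfbp3 (c) and Igfbp1 (b) on 4 of 4 arrays, with mean differences of -0.82 ± 0.10, -0.41 ± 0.12, -0.43 ± 0.22 and -0.30 ± 0.23. It was lower than Igf2 and Igfbp1 (a) on 3 of 4 arrays. Against Igfbp3 (a) (-0.22 ± 0.32), Ghr (-0.32 ± 0.82), Igfbp4 (0.03 ± 0.73), Igfbp2 (a), Igfbp5 and Igfbp6 it was lower on 2 of 4.

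**Figure D2:**
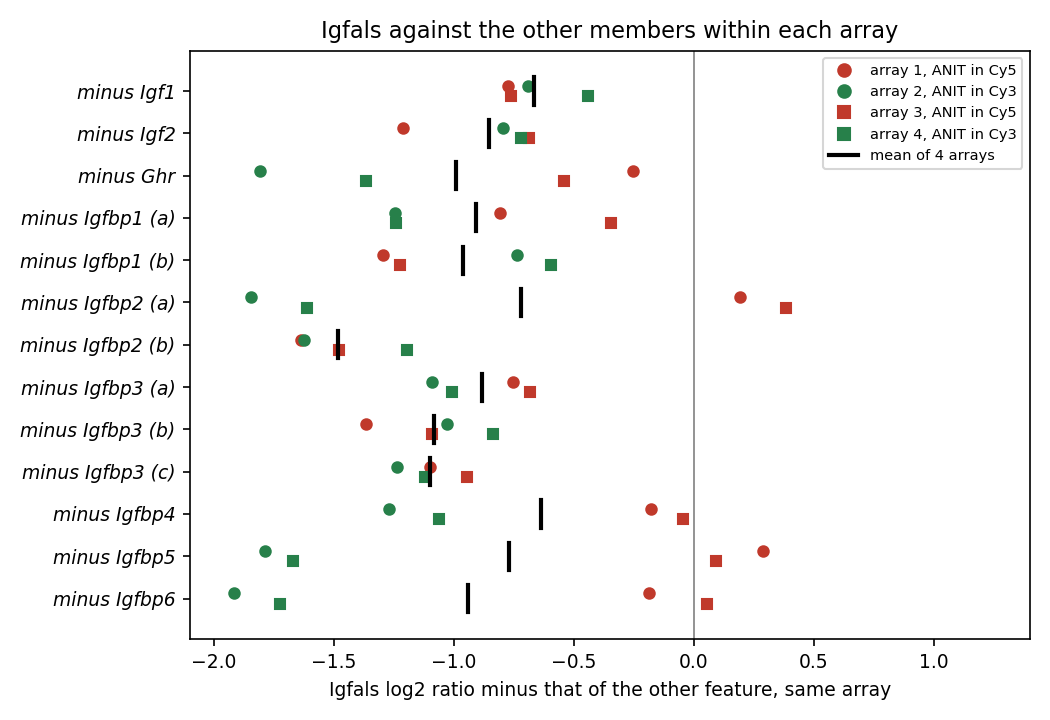
Igfals log2 ratio minus that of each other member on the same array (x axis), for the 13 other features (y axis), with 1 point per array coloured by the dye of the ANIT pool and a black bar at the mean. All points against Igf1, Igf2, Igfbp2 (b) and the 3 Igfbp3 features lie below 0, and those against Igfbp2 (a) and Igfbp5 fall on both sides.

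The dye split the whole array in the same way. Of all features, 43.2% had a dye contrast of -0.5 or below, as had 5 of the 14 members (35.7%): Ghr, Igfbp2 (a), Igfbp4, Igfbp5 and Igfbp6. A pattern below 0 on both arrays with ANIT in Cy5 and above 0 on both others was found in 7 of the 14 members, which adds Igfbp1 (a) and Igfbp3 (c), and in 53.8% of all features. In the arrays with ANIT in Cy5 alone, the 2-fold rule put 5 members lower, Igfals and the 4 dye-shifted binding protein features, but also 34.5% of all features. With ANIT in Cy3 alone it put Igfals lower and 2.84% of all features. A limma fit over the 4 hybridisations with a dye term, which sets pool against pool, called 10 members lower and 1 higher at an adjusted p limit of 0.05, where it called 61.0% of all features lower and 14.2% higher. On centred arrays it called 5 lower and 1 higher, where 35.5% and 23.6% of all features were called. Mean ratios were far narrower among the dye-shifted features, with an SD over features of 0.18 for 837 features, against 0.55 for the other 1099. From the percentile 5 to the percentile 95 the former ran from -0.53 to -0.06 and the latter from -0.97 to 0.57. Of the 5 dye-shifted members 4 lay inside that narrow band, and Igfbp4 lay just below it. Of the 9 others 8 lay inside the wider band, and Igfals lay below it. Spot intensities were not used here.

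**Figure D3:**
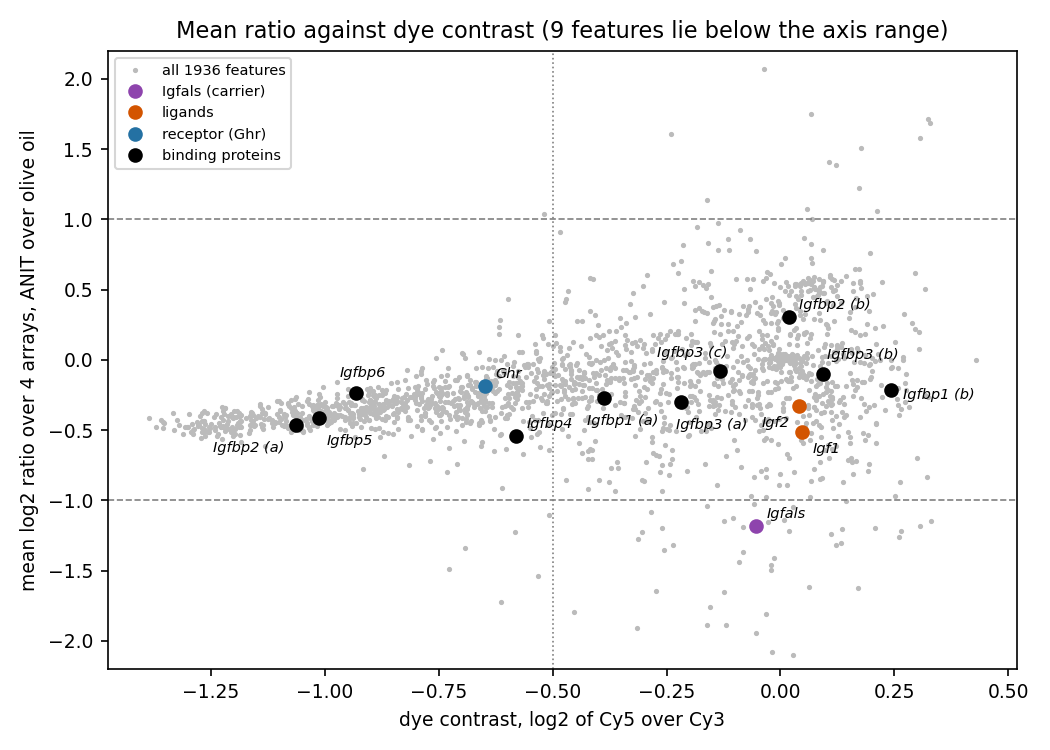
Mean log2 ratio over the 4 arrays (y axis) against dye contrast (x axis) for all 1936 features in grey and the 14 members in colour by class, with 9 features below the plotted range. Dashed lines mark the 2-fold limits and the dotted line a dye contrast of -0.5, left of which the features close into a narrow band that holds Igfbp2 (a), Igfbp5 and Igfbp6, while Igfals lies at -1.18 near a dye contrast of 0.

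The features most like Igfals over the 4 arrays, by Euclidean distance among features with 1 symbol, were those of Cyp2j3 (distance 0.15), Tspo (0.17), Slc29a1 (0.19), Cyp4f4 (0.22) and Notch3 (0.26). Their means ran from -1.22 to -1.12. Cyp2j3 and Cyp4f4 are cytochrome P450 enzymes, Tspo is a mitochondrial outer membrane protein, Slc29a1 a nucleoside carrier and Notch3 a receptor. A distance over 4 arrays of the same pools describes equal ratios only.

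Genes around the IGF system were described in 8 lists, of which 7 had at least 3 measured genes, feature by feature and beside the 3.05% lower and 0.775% higher of all features. Of 16 features of growth hormone receptor signalling (6 genes, median -0.10), 1 was higher and 0 lower. It was a feature of Stat3, a factor that serves interleukin 6 more than growth hormone, at 1.13, 1.00, 1.02 and 0.87 on arrays 1 to 4 (mean 1.00 ± 0.11). That call rested on array 1 and on array 2, since 0 features of the list were called without either, and 0 were called with ANIT in Cy3 alone. The other Stat3 feature stood at 0.86 ± 0.23, and with centred arrays both Stat3 features, 2 in the list, were past the rule. The direct transducers of Ghr, named after their values were seen, were not past the rule. Stat5b had 1 feature at -0.45 ± 0.49 and Jak2 had 3 features at -0.26 ± 0.68, -0.16 ± 0.77 and -0.01 ± 0.09.

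Downstream of the insulin and IGF receptors, 0 of 17 features (12 genes, median -0.13) passed the rule in either direction. The largest in size were the adaptor Grb2 at -0.55 ± 1.48 and -0.35 ± 0.24, the kinase Map2k2 at 0.41 ± 0.25, and Pik3r2, a regulatory subunit of phosphoinositide 3-kinase, at -0.35 ± 1.08. Of these, Grb2 at -0.55 and Pik3r2 followed the dye, with contrasts of -1.26 and -0.92. Among the 17 features of proteases and partners of binding proteins (13 genes, median -0.11), 0 passed. Mmp14, a membrane-bound protease, stood at 0.86 ± 0.13, the lysosomal protease Ctsl at 0.78 ± 0.31, fibronectin (Fn1) at 0.50 ± 0.26 and Mmp2 at -0.49 ± 1.24. The other Ctsl feature stood at -0.08 ± 0.11, so the features of Ctsl disagreed, and the other Fn1 feature at 0.26 ± 0.04. With centred arrays 1 of the 17 features, Mmp14, was past 2-fold (1.02). Ccn2, the single measured member of the related CCN family, stood at 0.09 ± 0.55.

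Of 13 features of liver genes under growth hormone control (6 genes, median -0.35), 4 were lower and 0 higher. They were both features of Car3, a carbonic anhydrase of male rat liver, at -4.57 ± 0.35 and -4.57 ± 0.45, and both of Cyp2j3, at -1.19 ± 0.10 and -1.15 ± 0.15. With centred arrays 3 were lower, since the second Cyp2j3 feature stood at -0.98. By gene mean, 2 of the 6 genes were lower, and the features of the other genes were not past the rule. Egfr stood at -0.68 ± 0.33 and -0.27 ± 0.18, and Cyp17a1, which followed the dye, at -0.63 ± 0.71. Features of Cyp2c12 ran from -0.35 to 0.11, and Serpina3n stood at 0.25 ± 0.19 and 0.34 ± 0.14. Of 10 features of insulin and nutrient responsive genes (8 genes, Igfbp1 among them, median -0.43), 3 were lower and 0 higher. These were the desaturase Scd at -3.26 ± 0.30, the fatty acid synthase Fasn at -2.08 ± 0.13 and the pyruvate kinase Pklr at -1.65 ± 0.15. Besides Igfbp1, the features not past the rule were Me1 at -0.86 ± 0.36, Pck1 at -0.58 ± 0.51, Slc2a2 at 0.04 ± 0.32 and Gys2 at 0.34 ± 0.13 and 0.38 ± 0.13. The list was not split by the direction in which insulin acts on each gene, so its median has no single reading. Known regulators of Igf1 and Igfbp genes had 0 of 6 features past the rule (4 genes, median -0.40). The bile acid receptor Nr1h4 stood at -0.85 ± 0.46. The glucocorticoid receptor Nr3c1 had 3 features, at -0.82 ± 0.35, -0.43 ± 0.62 and -0.28 ± 0.54, and Thra stood at -0.38 ± 0.61. Of these, Nr3c1 at -0.43 and Thra were dye-shifted, with contrasts of -0.53 and -0.52.

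Igfals is itself a secreted hepatocyte protein, and other such proteins pointed both ways. Of their 22 features (15 genes, median -0.12), 2 were lower and 2 higher. The lower ones were both features of the apolipoprotein Apoc1, at -1.26 ± 0.30 and -1.15 ± 0.40, of which 1 passed with centred arrays. The higher ones were the acute phase proteins Lbp at 1.75 ± 0.12 and Orm1 at 1.06 ± 0.29, and without array 1 the count of higher features was 1. With centred arrays 1 feature of the list was lower and 3 were higher.

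**Figure D4:**
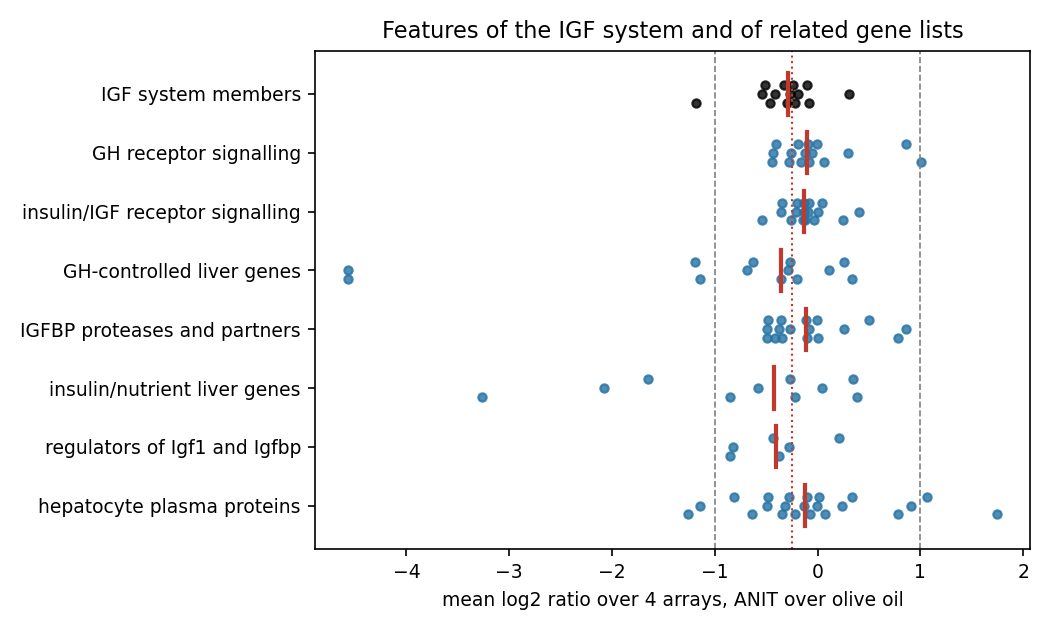
Mean log2 ratio over the 4 arrays (x axis) of each feature of the IGF system (black) and of 7 related gene lists (blue), with a red bar at each group's median. Dashed lines mark the 2-fold limits and the dotted red line the median of all features at -0.25, and the farthest points are the Car3 features at -4.57.

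Markers of cells other than hepatocytes were measured by 11 features of 9 genes, of which 0 passed the rule and 6 were dye-shifted. Their median was -0.37, with arrays 1 to 4 at -1.04, 0.54, -0.86 and 0.37, and no macrophage marker of the list was measured. Hepatocyte markers had 11 features of 4 genes with a median of -0.14, and 2 were lower, both of the P450 enzyme Cyp2e1 (-1.24 and -1.05). Other Cyp2e1 features were not past the rule, among them those at -0.41 (dye contrast -1.24), -0.13 and -0.10, so the features of this gene disagreed. The part of cell composition in the Igfals ratio was not tested. Ratios hold no level, so the labelled tissue could not be checked against its markers.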

How the data were processed

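For each array the authors deposited a log ratio per feature, read here as log2, that was not centred. Per the labels, liver RNA of 3 rats per condition was pooled and the pools hybridised together in a dye swap. How the slides were scanned, corrected and normalized was not given in the sources used here, nor were log base and direction. Values were used as deposited. The 4 arrays were counted as technical repeats, so each condition is 1 sample, and their number limits the precision.

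Features were named through the platform annotation. All 14 members matched a RefSeq gene of GRCr8 by ID and symbol, and 19 features with several symbols and 485 with none were left out of lists. The mean over the balanced arrays weighs both orientations equally, which cancels a dye effect only where it is the same size in each. The median of the mean ratios was -0.34 for the 837 dye-shifted features and -0.08 for the other 1099. Whether part of the dye effect remained in the means was not tested. The dye contrast is the difference between orientations over 2. Calls used at least 2-fold in the mean and 1 sign on 4 arrays. All members were named. From each list, features past the rule, or up to 4 with the largest ratio, were named. Further list features were named after their values were seen. The 5 features nearest to Igfals were named too. Members, lists, motifs and limits were chosen with earlier results of these data known. The size rule and the limma fit were tested on simulated data. The simulated dye effect had the same size in each orientation, so that test could not show a dye effect left in the means. Alternatives were size limits, centring, single orientations, arrays left out with a dye term, log base, direction, gene means and limma with a dye term. Fits used R 4.3.3 with limma 3.58.1, and other steps Python 3.11.15 with pandas 2.3.3, numpy 2.4.6 and matplotlib 3.10.9.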

Additional observations from a re-analysis of the deposited data

Results flagged for a closer look

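Array 3 stood apart for Mmp14, where it was at 0.67 and the others between 0.91 and 0.93, a gap of 0.953 of the range. Array 1 stood apart for Lbp, at 1.92 beside 1.67 to 1.71, a gap of 0.835 of the range. Chance flags about 1 group in 20, a rate that does not hold for values split by the dye. The search covered all members, their medians and the list features named by the rule for naming. At that rate a few flags can arise in a search of this size without a real outlier. No member of the IGF system was flagged. A flag needs 1 array far from the rest, so it could not arise where the widest gap lay between the dye orientations. That was so for Ghr, Igfbp1 (a), Igfbp1 (b), Igfbp2 (a), Igfbp3 (a), Igfbp3 (c), Igfbp4, Igfbp5 and Igfbp6. For these members the lack of a flag says nothing about single arrays.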

How the results depend on the processing

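Igfals was the member called lower at 1.5-fold, with centred arrays, in either dye orientation, with each array left out (-1.23 to -1.14), by gene mean and with natural logarithms (-1.71). At 3-fold 0 members were called. If the ratios ran as olive oil over ANIT, Igfals would stand at 1.18, with 0 members lower and 1 higher, and the carrier and binding protein median at 0.27. With ANIT in Cy5 alone 5 members were lower (Igfals, Igfbp2 (a), Igfbp4, Igfbp5 and Igfbp6), where 34.5% of all features were. With ANIT in Cy3 alone Igfals was the single one, where 2.84% were. Across the hybridisations, limma with a dye term (adjusted p limit 0.05), which sets pool against pool and says nothing of the spread between animals, called 10 members lower and 1 higher, where it called 61.0% and 14.2% of all features. With centred arrays it called 5 lower (Igfals, Igf1, Igfbp2 (a), Igfbp4 and Igfbp5) and 1 higher (Igfbp2 (b)), where it called 35.5% and 23.6%. The mean ratios of Igf1, Igf2 and Igfbp3 (a) stayed below 0 in these settings other than the opposite direction. The number of arrays, the single pool per condition and the lack of intensities limit what these ratios can show.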
